A study of Mus musculus with 12 samples.

Results

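The 10 genes described here encode parts of the signal recognition particle (SRP), its receptor and the signal peptidase, and they were taken by gene name from 55367 distinct symbols. They were *Srp9*, *Srp14*, *Srp19*, *Srp68* and *Srp72* of the SRP, *Srprb* of the receptor, and *Spcs1*, *Spcs2*, *Spcs3* and *Sec11a* of the signal peptidase. Their mRNA was measured by RNA-seq in 12 samples of single fibers isolated from the extensor digitorum longus (EDL), a fast muscle of the mouse hindlimb. Young fibers came from C57BL/6J mice aged 3 to 4 months (n = 4), and fibers of mice aged 26 to 28 months were sorted under a fluorescence stereomicroscope into Fluo-4 normal (n = 4) and Fluo-4 abnormal (n = 4) fibers. Fluo-4 is a fluorescent calcium indicator, and abnormal fibers are those with abnormally high staining. The sort by staining defines the aged groups, and young fibers were not split in this way. The labels do not say which mice, or how many, gave each sample, so the p-values measure only the spread between these samples.

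The SRP is a cytosolic ribonucleoprotein that binds the signal sequence of a secretory or membrane protein as it leaves the ribosome, slows its translation and brings the ribosome to the endoplasmic reticulum. There it docks on the SRP receptor, the nascent chain passes into the translocon, and the signal peptidase cuts off the signal sequence on the luminal side. In muscle fibers the sarcoplasmic reticulum, the calcium store around the myofibrils, is a specialised part of the same membrane system. Its luminal calcium-binding proteins and many of its membrane proteins depend on all or part of this route.

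The samples had the transcripts of fast muscle fibers. Summed over 9 myofiber markers, the level was 171860 to 174940 TPM (a unit scaled for transcript length and library size) in young, 146788 to 170714 in Fluo-4 normal and 177657 to 200220 in Fluo-4 abnormal samples, whereas 5 slow fiber markers summed to at most 6.93 TPM. *Myh4*, the fast IIb myosin, made up 96.9% to 98.6%, 93.7% to 99.2% and 98.9% to 99.7% of the TPM of *Myh1*, *Myh2*, *Myh4* and *Myh7* in the same order. Among other cells, 4 adipocyte markers summed to 15.4 to 28.6 TPM in young, 32.8 to 111.7 in Fluo-4 normal and 8.28 to 64.4 in Fluo-4 abnormal samples, with *Adipoq* and *Plin1* at 0 in all 12, and 3 erythroid markers summed to 21.2 to 77.6 TPM in young, 76.4 to 297 in Fluo-4 normal and 27.1 to 147 in Fluo-4 abnormal samples. Fibroblast markers summed to 19.6 to 38.5 TPM in young, 25.4 to 82.6 in Fluo-4 normal and 13.6 to 64.6 in Fluo-4 abnormal samples. Smooth muscle and pericyte markers summed to 4.06 to 49.0 TPM in young and to at most 20.5 TPM in aged samples. Immune markers summed to 0.991 to 2.47 TPM in young and to 5.63 to 19.5 and 7.80 to 12.9 TPM in the aged groups. Endothelial markers summed to at most 14.4 TPM, satellite cell markers to at most 3.16 TPM and Schwann cell markers to at most 2.55 TPM. Between abnormal and normal fibers, 1 of 9 myofiber and 1 of 5 slow fiber markers were called higher, and none of the other lists had a called gene. Against young fibers, 1 immune and 1 Schwann cell marker were called higher in abnormal fibers and 1 immune marker in normal fibers. Their part in the results below was not tested. TPM keeps no read depth, so no counting interval could be given. In bulk samples, fewer cells of a type and less RNA per cell cannot be told apart.

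All 10 genes were well above the limit for testing. In young fibers the mean level per transcript length ran from 262 TPM for *Spcs1* and 229 TPM for *Srp14* through *Spcs2* (111), *Srp19* (86.9), *Srp9* (76.8), *Srp68* (46.7), *Sec11a* (29.1), *Spcs3* (21.2) and *Srprb* (17.3) to 11.9 TPM for *Srp72*. Young samples of the neighbours *Srp19* and *Srp9*, and of *Spcs3* and *Srprb*, overlapped, and those of the other neighbours did not. Summed over the 10 genes, the level was 893 ± 16.6 TPM in young (SD, n = 4), 890.1 ± 20.6 in Fluo-4 normal and 1046 ± 56.7 in Fluo-4 abnormal fibers. Every abnormal sample, from 989 to 1118 TPM, lay above every other sample. Of genes with at least 5 TPM, 78.6% were also higher in abnormal than in normal fibers, with a median log2 difference of 0.20. Against young fibers this share was 68.4% and the median 0.12, so the sum alone does not set these genes apart.

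The first comparison asked how fibers with abnormal Fluo-4 staining differ from normal fibers of the same age. In it, *Srp9*, *Srp68*, *Srp72*, *Srprb*, *Spcs2* and *Spcs3* were higher in abnormal fibers by 1.29-fold to 1.54-fold, and *Srp14*, *Srp19*, *Spcs1* and *Sec11a* differed by 1.07-fold to 1.10-fold and did not pass the test. Thus 6 of 10 genes were called higher at an adjusted p-value under 0.05 (limma on log2(TPM + 1), Benjamini-Hochberg over 14432 genes), and none lower. Of all genes tested, 7.36% were called higher, and of the 6352 genes with at least 5 TPM, a limit that all 10 genes pass, 14.0%. Groups without overlap, abnormal above normal, were found for 5 of the 10 genes, against 11.5% of all genes and 20.1% of those with at least 5 TPM. The 10 genes were chosen with earlier results of these data known, so these shares are a description and not an independent test.

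The median difference of the 10 genes was 0.39 on the log2 scale, with a range of 0.094 to 0.59. The median over genes of at least 5 TPM was itself 0.20, and 78.6% of them had a positive difference. Relative to that median, the 6 called genes were higher by 0.16 (*Srp9*) to 0.38 (*Srp72*), and the other members stood at -0.11 (*Sec11a*) to -0.074 (*Srp19*). With TMM-type factors, under which the median of all genes was 0, only *Srp72* remained below the threshold, the median of the 10 genes was 0.17, and *Srp14*, *Srp19*, *Spcs1* and *Sec11a* turned negative. The calls over all genes were 1062 higher and 288 lower without these factors and 306 higher and 542 lower with them. With a block for the replicate number, which pairs the aged samples, 2 of the 10 genes, *Srp68* and *Srp72*, were called. In that fit 918 of all 14432 genes were called higher.

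**Figure D1:**
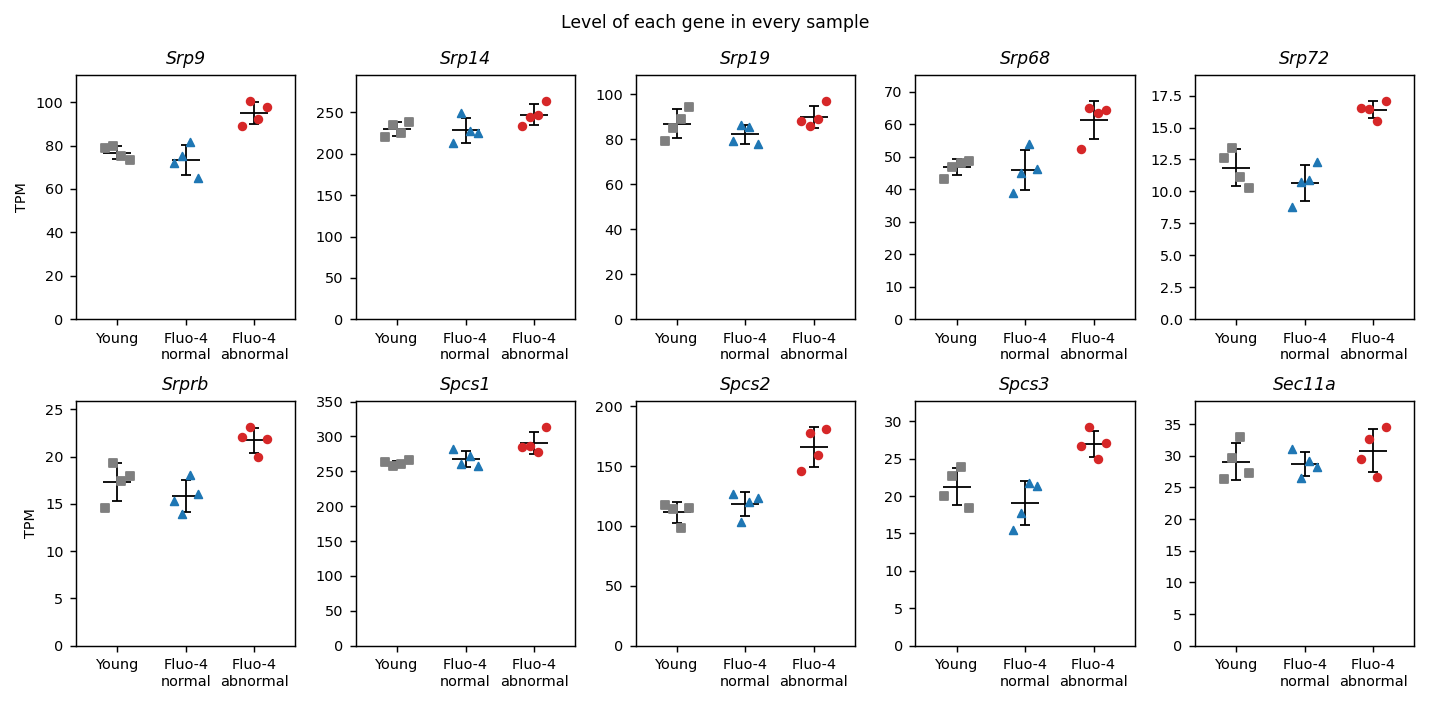
TPM (vertical axes, from 0) of the 10 genes in every sample of young, Fluo-4 normal and Fluo-4 abnormal fibers, with bars for the mean and SD (n = 4). In *Srp72* the 4 abnormal samples, 15.5 to 17.1 TPM, lie above all others, whereas in *Sec11a* the 3 groups overlap.

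*Srp72* and *Srp68* encode the partner proteins that bind each other and the SRP RNA, and form the largest protein part of the particle. *Srp72* (chromosome 5, 77122530 to 77147784, GRCm39) had 16.5, 16.4, 15.5 and 17.1 TPM in abnormal fibers, 8.79, 10.7, 10.9 and 12.3 TPM in Fluo-4 normal fibers and 12.7, 13.4, 11.1 and 10.3 TPM in young fibers. The abnormal samples did not overlap with either of the other groups. The difference from normal fibers was 0.59 ± 0.11 on the log2 scale (SE, limma adjusted p = 0.0075), the largest of the 10 genes. *Srp68* (chromosome 11, 116135989 to 116165412) had 52.4, 64.8, 63.4 and 64.4 TPM in abnormal, 38.7, 45.1, 53.8 and 46.1 TPM in normal and 43.3, 46.9, 48.1 and 48.8 TPM in young fibers. Abnormal replicate 1 lay below normal replicate 3, so these groups overlapped, and the difference was 0.41 ± 0.10 (limma adjusted p = 0.021). The *Srp68* call was lost without normal replicate 1 or 2 or abnormal replicate 2, 3 or 4, with differences of 0.33 to 0.40.

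*Srp9* and *Srp14* encode the dimer that binds the Alu domain of the SRP RNA and holds back elongation. *Srp9* (chromosome 1, 181952302 to 181960690) had 89.2, 100.6, 92.0 and 97.7 TPM in abnormal, 72.1, 75.3, 81.4 and 64.9 TPM in normal and 78.7, 79.7, 75.2 and 73.4 TPM in young fibers. Its abnormal samples lay above all others, and the difference from normal fibers was 0.37 ± 0.07 (limma adjusted p = 0.0091). *Srp14* (chromosome 2, 118303477 to 118310192) had 234, 244, 246 and 264 TPM in abnormal, 213, 249, 227 and 225 TPM in normal and 219.8, 235, 225 and 238 TPM in young fibers. Its groups overlapped, with a difference of 0.11 ± 0.06 (limma adjusted p = 0.28). A stretch of 253 bp of the *Srp9* transcript is also in the pseudogene *Gm13736*, listed at 11.8 to 38.7 TPM in abnormal and 13.7 to 21.8 TPM in normal fibers, and reads may have been divided between them.

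*Spcs2* and *Spcs3* encode accessory subunits of the signal peptidase. *Spcs2* (chromosome 7, 99486776 to 99512669) had 146, 178, 159 and 181 TPM in abnormal, 126, 103, 120.1 and 123 TPM in normal and 118, 114, 98.5 and 115 TPM in young fibers. All abnormal samples were above all others, with a difference from normal fibers of 0.49 ± 0.09 (limma adjusted p = 0.0059). *Spcs3* (chromosome 8, 54973464 to 54983053), whose protein is required for cleavage, had 26.6, 29.2, 24.9 and 27.1 TPM in abnormal, 15.5, 17.7, 21.7 and 21.3 TPM in normal and 19.99, 22.6, 23.9 and 18.4 TPM in young fibers. Again no sample of another group reached the abnormal ones, and the difference was 0.49 ± 0.12 (limma adjusted p = 0.02), a call lost without normal replicate 2 (0.46) or abnormal replicate 2 (0.45).

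*Spcs1* (chromosome 14, 30718991 to 30723629), a small accessory subunit, had 285, 286, 277 and 313 TPM in abnormal, 281, 261, 272 and 257 TPM in normal and 263, 258, 261 and 266 TPM in young fibers. The abnormal samples lay above the young ones and overlapped with the normal ones, and the difference from normal fibers was 0.12 ± 0.06 (limma adjusted p = 0.21). *Sec11a* (chromosome 7, 80554637 to 80597575) encodes one of the catalytic subunits. It had 29.5, 32.6, 26.7 and 34.5 TPM in abnormal, 31.0, 26.5, 29.2 and 28.2 TPM in normal and 26.4, 29.6, 33.0 and 27.3 TPM in young fibers. Its groups overlapped throughout, with a difference of 0.094 ± 0.10 (limma adjusted p = 0.58).

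*Srprb* (chromosome 9, 103065219 to 103079347) encodes the membrane-anchored beta subunit of the SRP receptor. It had 22.04, 23.1, 19.9 and 21.9 TPM in abnormal, 15.3, 13.9, 18.1 and 16.01 TPM in normal and 14.6, 19.3, 17.4 and 17.9 TPM in young fibers. The lowest abnormal sample stood just above the highest young sample, and the difference from normal fibers was 0.44 ± 0.10 (limma adjusted p = 0.02). The call was lost without normal replicate 2 (0.38) or abnormal replicate 2 (0.41). *Srp19*, which helps SRP54 to join the particle, had 88.3, 85.8, 88.8 and 97.1 TPM in abnormal, 79.1, 86.1, 85.3 and 78.1 TPM in normal and 79.1, 84.9, 89.2 and 94.4 TPM in young fibers, with overlapping groups and a difference from normal fibers of 0.13 ± 0.07 (limma adjusted p = 0.27).

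The subunits that complete these complexes, and are not among the 10 genes, were also measured. *Sec11c*, the other catalytic subunit of the signal peptidase, had 42.0, 58.0, 57.3 and 56.8 TPM in abnormal and 31.4, 37.0, 36.8 and 41.8 TPM in normal fibers. All abnormal samples were higher, if by little for replicate 1, and the difference was 0.53 ± 0.11 (limma adjusted p = 0.012). *Srpra*, listed under its older symbol *Srpr*, encodes the alpha subunit of the receptor and had 160.6, 185, 178 and 185 TPM in abnormal and 104, 126, 151 and 141 TPM in normal fibers, a difference of 0.45 ± 0.11 (limma adjusted p = 0.019) without overlap. Of the 3 genes for SRP54, the GTPase that binds the signal sequence, *Srp54a* (0.45 ± 0.07, limma adjusted p = 0.0029) and *Srp54c* (0.44 ± 0.07, limma adjusted p = 0.0029) were called higher and *Srp54b* (0.38 ± 0.12, limma adjusted p = 0.062) was not. These 3 transcripts are at least 99.4% identical over most of their length, so the division of reads among them is uncertain. With TMM-type factors none of these 5 subunits was called, where 306 of all 14432 genes were called higher. With the replicate block the same 4 subunits were called, where 918 of all genes were called higher.

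The RNA of the SRP, 7SL, is listed under *Rn7s1* and *Rn7s2*, which were looked at after their values were seen. *Rn7s1* had 1245, 1073, 1048 and 1013 TPM in abnormal, 1543, 1021, 1013 and 1014 TPM in normal and 1310, 1093, 1019 and 1152 TPM in young fibers, with overlapping groups. In the fit over all annotated genes the difference of abnormal from normal fibers was -0.048 ± 0.13 (limma adjusted p = 0.9) for *Rn7s1* and -0.059 ± 0.13 (limma adjusted p = 0.85) for *Rn7s2*. These RNAs have near-identical copies and carry no regular poly(A) tail, which the cDNA kit primes on, so their values are less certain than those of mRNA.

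The second comparison set the abnormal fibers against young fibers, using the same abnormal samples. In it, *Srp9*, *Srp68*, *Srp72* and *Spcs2* were higher by 1.24-fold to 1.49-fold. These were 4 of the 10 genes, with no gene lower, against 6.09% of all genes and 10.3% of those with at least 5 TPM called higher. *Spcs2* had the largest difference, 0.57 ± 0.09 (limma adjusted p = 0.0021), followed by *Srp72* with 0.44 ± 0.11 (limma adjusted p = 0.029). *Spcs3* (0.34 ± 0.12, limma adjusted p = 0.095), *Srprb* (0.32 ± 0.10, limma adjusted p = 0.077) and *Spcs1* (0.15 ± 0.06, limma adjusted p = 0.13) lay above every young sample but did not pass the test. With these, 7 of the 10 genes had no overlap, against 12.3% of all genes and 19.5% of those with at least 5 TPM. The median of the 10 genes was 0.31, where genes of at least 5 TPM had 0.12. With TMM-type factors 0 of the 10 genes were called in limma, with 3 at an unadjusted p under 0.05. *Spcs2* was called without any 1 sample, and was the only one of the 10 called without young replicate 1, 3 or 4 or abnormal replicate 2 or 4.

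The third comparison, of Fluo-4 normal with young fibers, asked what changed with age in fibers with normal staining. None of the 10 genes was called by limma, and 0 had an unadjusted p under 0.05, where 1.14% of all genes were called. Of all 14432 genes, 1865 had an unadjusted p under 0.05. The differences ran from -0.15 ± 0.12 for *Spcs3* (limma adjusted p = 0.63) to 0.085 ± 0.09 for *Spcs2* (limma adjusted p = 0.75), with a median of -0.05. For 0 of the 10 genes did the groups stand without overlap, against 7.99% of all genes. In *Srp14* the means were 228 ± 15.2 TPM in normal and 229 ± 8.58 TPM in young fibers (SD, n = 4), and in *Srp68* 45.9 ± 6.19 and 46.7 ± 2.45 TPM. A test that misses the threshold does not show that the levels were equal.

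**Figure D2:**
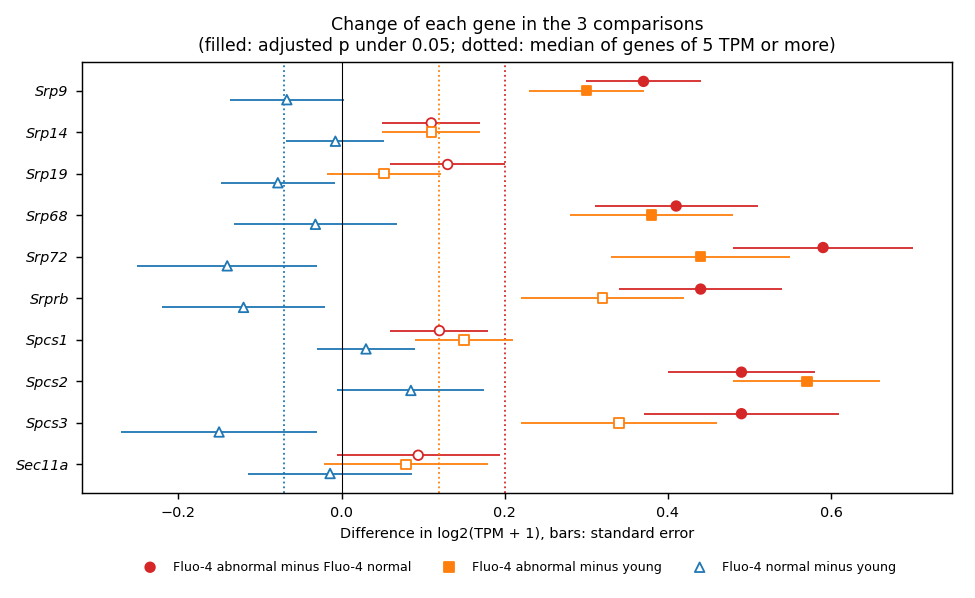
Difference in log2(TPM + 1) of each gene (horizontal axis, bars are SE) in the 3 comparisons, with filled symbols for an adjusted p-value under 0.05 and dotted lines at the median of genes with at least 5 TPM. All 10 genes were positive in both comparisons with abnormal fibers, and *Srp14*, *Srp19*, *Spcs1* and *Sec11a* lay below the dotted line at 0.20 for abnormal against normal fibers, but turned negative there with TMM-type factors.

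Because TPM ratios within a sample do not depend on its scaling, the genes of each pair of binding or alternative partners were compared directly, in 5 pairs and 3 comparisons, with an exact two-sided permutation test over the 70 arrangements of 4 against 4 samples. The smallest p-value this design can give is 0.0286. The ratio of *Srp9* to *Srp14* was 0.382, 0.412, 0.373 and 0.370 in abnormal, 0.339, 0.302, 0.359 and 0.289 in normal and 0.358, 0.339, 0.335 and 0.308 in young fibers. All abnormal samples lay above all others, by 0.26 on the log2 scale against normal and 0.20 against young fibers. The ratio of *Spcs1* to *Spcs2* was 1.96, 1.61, 1.74 and 1.73 in abnormal, 2.23, 2.52, 2.26 and 2.09 in normal and 2.23, 2.26, 2.65 and 2.32 in young fibers, and all abnormal samples lay below all others, by -0.37 and -0.43. These 4 differences each had an exact permutation p of 0.0286 and an adjusted p of 0.086 over the 15 tests, which did not pass the threshold. Each p was already the smallest possible, so a clearer separation could not have lowered it. No conclusion is drawn from the missed threshold. With the aged samples paired by replicate number, a form added after the data were seen, both ratios moved one way in 4 of 4 pairs (exact paired permutation p = 0.125, the smallest that 4 pairs can give).

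The ratio of *Sec11a* to *Sec11c*, the alternative catalytic subunits, was 0.701, 0.562, 0.465 and 0.608 in abnormal, 0.988, 0.716, 0.794 and 0.673 in normal and 0.766, 0.770, 0.897 and 0.800 in young fibers. Abnormal replicate 1 stood above normal replicate 4, but the ratio was lower in abnormal fibers in 4 of 4 equally numbered pairs (exact paired permutation p = 0.125). The log2 difference was -0.44 from normal (exact permutation p = 0.0571, adjusted 0.14) and -0.48 from young fibers (exact permutation p = 0.0286, adjusted 0.086). The ratios of *Srp68* to *Srp72* and of *Srprb* to *Srpr* overlapped between all groups, with log2 differences of -0.21 (exact permutation p = 0.143) and 0.0079 (exact permutation p = 0.971) between abnormal and normal fibers. Between normal and young fibers, the 5 ratios overlapped, with exact permutation p-values of 0.429 to 0.771.

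**Figure D3:**
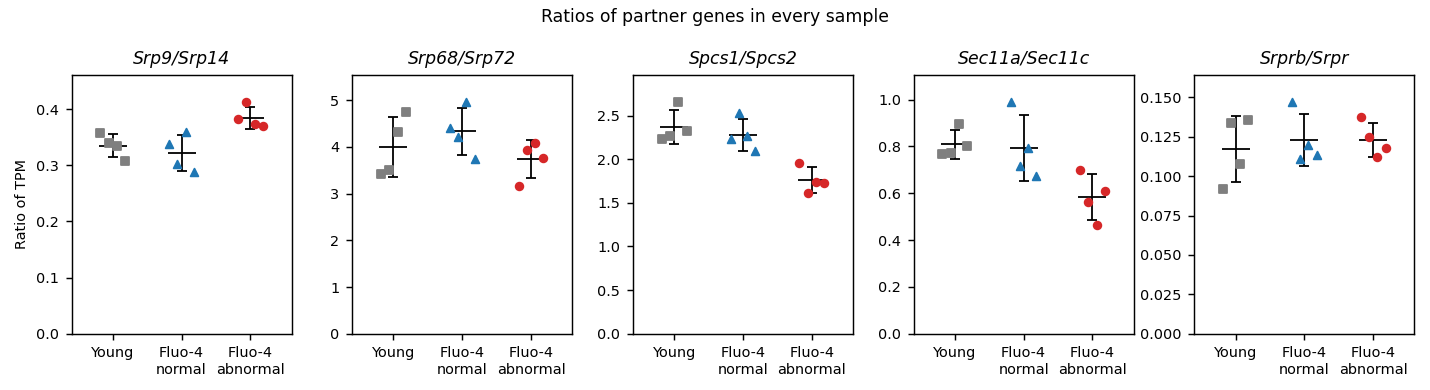
TPM ratio of 5 gene pairs (vertical axes, from 0) in every sample, with bars for the mean and SD (n = 4). Abnormal samples lie above the others for *Srp9* to *Srp14* (0.370 to 0.412) and below them for *Spcs1* to *Spcs2* (1.61 to 1.96).

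The promoters of the dimer and subunit pairs whose ratio separated the abnormal samples are shown, as 300 bases around the annotated start from RefSeq (GRCm38.p6, which is not the build of the files). They lie at chr1:182124487-182124786 on the plus strand (*Srp9*), and on the minus strand at chr2:118479647-118479946 (*Srp14*), chr14:31001617-31001916 (*Spcs1*) and chr7:99858834-99859133 (*Spcs2*). Capitals mark CCAAT, the core of the box bound by NF-Y, and CCACG, which with CCAAT and a gap of 9 bases makes up the ER stress response element, on either strand.
Srp9: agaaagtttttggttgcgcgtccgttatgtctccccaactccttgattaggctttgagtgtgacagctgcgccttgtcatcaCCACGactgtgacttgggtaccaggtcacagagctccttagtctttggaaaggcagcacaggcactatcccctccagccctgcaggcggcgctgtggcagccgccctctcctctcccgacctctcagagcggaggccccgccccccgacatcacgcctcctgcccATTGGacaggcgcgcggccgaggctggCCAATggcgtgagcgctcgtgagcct
Srp14: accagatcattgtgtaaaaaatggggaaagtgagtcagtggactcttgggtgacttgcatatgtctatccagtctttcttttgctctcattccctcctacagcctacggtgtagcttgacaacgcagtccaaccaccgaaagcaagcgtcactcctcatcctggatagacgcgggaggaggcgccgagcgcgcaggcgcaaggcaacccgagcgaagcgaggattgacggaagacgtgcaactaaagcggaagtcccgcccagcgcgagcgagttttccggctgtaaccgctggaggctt
Spcs1: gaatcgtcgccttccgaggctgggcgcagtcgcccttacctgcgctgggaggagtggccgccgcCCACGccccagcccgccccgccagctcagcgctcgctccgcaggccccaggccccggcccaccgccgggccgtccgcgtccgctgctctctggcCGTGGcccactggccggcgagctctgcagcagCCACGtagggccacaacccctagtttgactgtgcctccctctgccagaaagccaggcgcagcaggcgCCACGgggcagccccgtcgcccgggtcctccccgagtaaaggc
Spcs2: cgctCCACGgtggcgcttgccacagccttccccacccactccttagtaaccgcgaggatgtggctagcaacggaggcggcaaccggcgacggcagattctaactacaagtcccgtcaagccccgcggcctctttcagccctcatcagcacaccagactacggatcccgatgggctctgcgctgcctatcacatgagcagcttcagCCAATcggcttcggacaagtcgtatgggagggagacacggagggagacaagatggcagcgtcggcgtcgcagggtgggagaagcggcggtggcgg

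In these windows, *Srp9* and *Spcs2*, which rose, held CCAAT and CCACG, *Spcs1* held 4 copies of CCACG and *Srp14* held neither. Promoters were matched for 7 of the 10 genes, without *Srp19* and the called *Srp68* and *Spcs3*. Of the 7, 2 held CCAAT, which 37.4% of all 32851 promoters hold, and 5 held CCACG, which 32.8% hold. Outside the 10 genes, *Srp54a*, *Srp54b*, *Srp54c* and *Srpr* each held 1 CCAAT, and of these *Srp54b* was not called against normal fibers. *Srp72*, which rose most against normal fibers, held neither. *Srprb*, also called higher, held CCACG without CCAAT, as did *Spcs1* and *Sec11a*, which were not called. The spaced element was in 0 of these 7 and in 0.119% of all promoters, and TGACGTGG, a core of the unfolded protein response element that contains CCACG on its other strand, was in 0 of 7 and in 0.676% of all. Such matches are letters in a window, not sites.

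Other genes of targeting and entry into the ER were taken from lists by function, chosen with earlier results of these data known. The shares of all genes given beside their counts are therefore a description and not an independent test. Of 12 translocon genes, 5 were called higher in abnormal than in normal fibers and 0 lower, where 7.36% of all genes and 14.0% of those with at least 5 TPM were. With TMM-type factors 3 of the 12 were called (*Ssr1*, *Ssr3* and *Tram2*), where 306 of all 14432 genes were called higher. With the replicate block 6 were called, where 918 of all genes were called higher. The 3 with the smallest p were *Ssr3* (0.81 ± 0.10, limma adjusted p = 0.00073) and *Ssr1* (0.73 ± 0.10, limma adjusted p = 0.00099), subunits of the translocon-associated complex, and *Tram2* (0.72 ± 0.16, limma adjusted p = 0.014), whose level was 0.415 to 1.46 TPM in abnormal and 0.140 to 0.270 TPM in normal fibers. *Ssr3* had 165 to 219 TPM in abnormal and 93.6 to 123 TPM in normal fibers, without overlap. The median of the 12 was 0.39, the value of the 10 SRP and signal peptidase genes. Of 7 genes of the tail-anchored protein route, 3 were called higher, *Get4* (0.35 ± 0.09), *Ubl4a* (0.27 ± 0.07) and *Sgta* (0.29 ± 0.08), with a median of 0.27. None of the 7 was called with TMM-type factors, and 2, *Get4* and *Ubl4a*, with the replicate block.

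Of 10 subunits of the ER membrane complex, an insertase, 1 was called higher, *Emc3* (0.29 ± 0.07, limma adjusted p = 0.02). Called higher were 7.36% of all genes and 14.0% of those with at least 5 TPM, so this count does not set the complex apart. The median of the 10 was 0.16, below that of all genes with at least 5 TPM. *Emc3* was not called with TMM-type factors or the replicate block. *Emc9* had -0.23 ± 0.08 (limma adjusted p = 0.096), and it was called lower with TMM-type factors. Of 4 tested genes of the signal peptide peptidase and its relatives, 0 passed the limma test, with 2 at an unadjusted p under 0.05. Such a p-value was also found for 3695 of all 14432 genes, and for 2666 of the 6352 with at least 5 TPM. *H13*, whose protein cuts the remnant left by the signal peptidase, was nearest at 0.43 ± 0.13 (limma adjusted p = 0.062). *H13* was called higher with the replicate block and not with TMM-type factors. Of 4 genes of the nascent chain complex, which competes with the SRP at the ribosome, 0 passed. At an unadjusted p under 0.05 in limma were 3 of them (*Naca* 0.55 ± 0.20, *Btf3* 0.15 ± 0.06 and *Nacad* -0.65 ± 0.27). Of these, *Naca* was called higher with the replicate block, and none was called with TMM-type factors. *Tmem208* of the SND route did not pass either (0.29 ± 0.11, limma adjusted p = 0.11).

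The genes whose pattern over the 12 samples was most like the mean of the 10 genes were *Mpzl3* (Pearson's r = 0.968), *Rbbp7* (0.950), *Hspa5* (0.944), *Kcnf1* (0.941) and *Spock2* (0.941). The points share their libraries, and the abnormal samples stand apart from the rest, so these values are a description of the group difference. *Hspa5*, the luminal chaperone BiP, had 207 to 260 TPM in abnormal fibers, 106 to 167 TPM in normal and 123 to 164 TPM in young fibers, without overlap. *Rbbp7*, a histone-binding protein, had 98.6 to 113 TPM in abnormal and 85.9 to 93.6 TPM in all other samples.

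**Figure D4:**
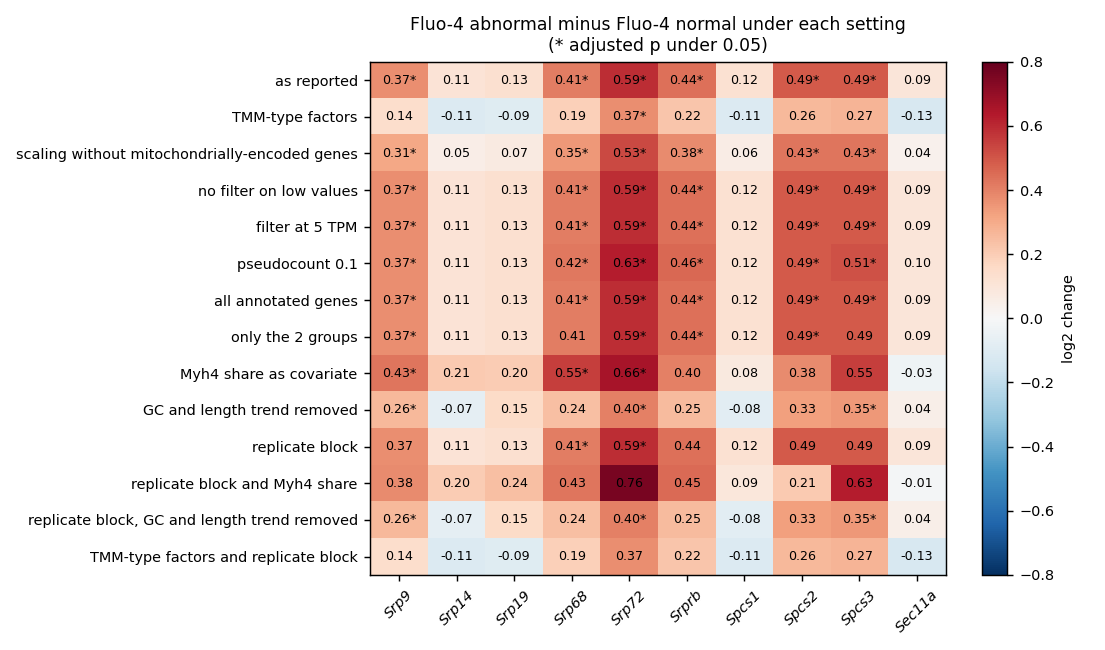
Log2 difference of abnormal from Fluo-4 normal fibers for the 10 genes (columns) under 14 processing settings that keep all samples (rows), with a star for an adjusted p-value under 0.05. *Srp72* had the largest difference in each of these, from 0.37 to 0.76, but not without Fluo-4 normal replicate 1 (0.50, where *Spcs2* had 0.52), and *Srp14*, *Srp19*, *Spcs1* and *Sec11a* were negative with TMM-type factors.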

How the data were processed

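RNA was measured in 12 samples, 4 per group. Per the labels and methods, the authors made cDNA from 10 ng of total RNA with an unstranded SMART-Seq v4 kit, used DRAGEN for alignment to GRCm39, and deposited 1 table of TPM per sample. The annotation release is not given in the sources used here. TPM keeps no depth. Of 55487 lines, 55367 symbols were distinct and repeated symbols were summed.

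Values were taken as log2(TPM + 1). All 3 groups entered 1 linear model in limma 3.58.1 (R 4.3.3), with a variance trend, over 14432 protein-coding and mitochondrially-encoded genes with a mean of at least 0.02 TPM in 1 group. Fold differences in the text are ratios of mean TPM, and log2 differences are on the log2(TPM + 1) scale, which understates changes of low genes. In simulated data of 4 against 4 samples, 91% of 2-fold and 99% of 4-fold changes were recovered and 2.06% of calls were false. The members called higher differed by 1.29-fold to 1.54-fold against normal and by 1.24-fold to 1.49-fold against young fibers. These differences are below 2-fold, so the recovery rates do not apply to them. Whether the share of false calls holds for the measured samples was not tested. Partner ratios were tested by exact permutation (scipy 1.17.1), adjusted over 15 tests. Near-identical transcripts (at least 95% over 100 bp) were searched with BLAST 2.17.0 against GENCODE vM39. *Srp9*, *Srp14*, *Srp19*, *Srp72*, *Spcs1*, *Spcs2*, *Spcs3*, *Sec11a* and other subunits overlap a neighbour by at least 100 bp, which unstranded reads cannot separate. *Srp72* overlaps the non-coding gene *Gm54291* over 25255 bp, and a stretch of 126 bp is identical in their transcripts. *Srp9* overlaps the pseudogene *Gm17968* over 784 bp. The effect of these overlaps on the differences was not tested.

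The genes named are the 10 members, the other subunits, up to 3 genes per other pathway list with the smallest p in the first comparison, the 5 genes most like the mean of the members, and *Myh4*. Members and lists were chosen with earlier results of these data known. The labels number replicates alike in the groups without saying that a number marks a mouse. Over 5998 genes, the departures from group means of equally numbered aged samples correlated at 0.438, 0.375, 0.431 and 0.302. Unequally numbered ones gave -0.365 to 0.234, so the former were treated as paired in an alternative fit. Equally numbered young samples gave 0.0053 to 0.182 with abnormal and -0.0812 to 0.228 with normal samples. Unequal numbers gave -0.185 to 0.217 and -0.163 to 0.253, so numbers did not pair the young samples. The alternatives were other scalings, filters and a pseudocount of 0.1, all annotated genes, the replicate block, only 2 groups, an added term for the *Myh4* share, a correction for GC content and length (spline, 5 degrees of freedom, canonical transcripts of GENCODE vM39) and leaving out each sample. TMM-type factors with the replicate block, paired tests of the ratios and refits of the pathway lists were added after the data were seen.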

Additional observations from a re-analysis of the deposited data

Results flagged for a closer look

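Within groups of 4 samples, 66 sets of values of the 10 genes, their partner subunits, the SRP RNA and the partner ratios were examined for a sample far from the others, which chance gives in about 1 of 20 sets, and 4 were found. *Srp68* was 52.4 TPM in Fluo-4 abnormal replicate 1, below the other abnormal samples at 63.4 to 64.8 TPM. *Sec11c* was 42.0 TPM in the same sample, where the others had 56.8 to 58.0 TPM. *Srp54c* was 29.4 TPM in Fluo-4 normal replicate 3, above the others at 26.4 to 26.7 TPM, in a gene that shares its sequence with *Srp54a* and *Srp54b*. *Rn7s1* was 1543 TPM in Fluo-4 normal replicate 1, where the others had 1013 to 1021 TPM. That library also had the lowest TMM-type factor of the 12, 0.809.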

How the results depend on the processing

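Against normal fibers, the number of the 10 genes called fell from 6 to 1 with TMM-type factors (median 0.17), to 3 with the *Myh4* share, and to 3 after removal of the GC and length trend, also with the replicate block (median 0.25 in both). In the fit on only the 2 groups it fell to 4, and the genes called fell from 1350 to 566. *Spcs3* (limma adjusted p = 0.056) and *Srp68* (limma adjusted p = 0.081) did not pass there. The replicate block, which pairs the samples, gave 2, the block with the *Myh4* share 0 (median 0.31), in a fit that called 0 of all 14432 genes, and the block with TMM-type factors, added after the data were seen, 0 (median 0.17). Leaving out 1 sample gave 3 to 6, with 3 without Fluo-4 normal replicate 2 or abnormal replicate 2, and medians of 0.35 to 0.45. Against young fibers, 4 became 0 with TMM-type factors, with or without the block (median 0.14), 1 after the GC and length removal, with or without the block (0.18), 0 with the block and *Myh4* share (0.19), where again 0 of all genes were called, and 1 to 3 without 1 sample (medians 0.28 to 0.34). The counts of 0 had 2 to 4 members at an unadjusted p under 0.05 in limma. As the replicate numbers did not pair the young samples, every blocked fit with young fibers rests on a pairing that was not shown. *Srp72* was called against normal fibers in 19 of 21 alternatives, *Srp9* in 17, *Spcs2* in 14, *Spcs3* in 13, *Srprb* in 12 and *Srp68* in 10. Between normal and young fibers 0 of the 10 were called in any of the 21, of which 3 with the block called 0 of all genes and the others 55 to 390.

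Direction changed only for the members that were not called. Against normal fibers, TMM-type factors, with or without the block, gave -0.13 for *Sec11a*, -0.11 for *Spcs1*, -0.11 for *Srp14* and -0.094 for *Srp19*. The *Myh4* share gave -0.032 and, with the block, -0.015 for *Sec11a*, and the GC and length removal, with or without the block, -0.083 for *Spcs1* and -0.07 for *Srp14*. Against young fibers, TMM-type factors, with or without the block, gave -0.09 for *Sec11a*, -0.027 for *Spcs1*, -0.069 for *Srp14* and -0.12 for *Srp19*, the GC and length removal gave -0.029 for *Srp14*, and the block with the *Myh4* share gave -0.11 for *Sec11a* and -0.00044 for *Srp19*. The cause of these changes was not tested. With pairing, the partner ratios of abnormal against normal fibers keep their values (0.26, -0.21, -0.37, -0.44 and 0.0079), and the test could not pass the threshold. The partner ratios moved by less than the spread between replicates with a pseudocount of 1 and without any 1 sample. TPM keeps no depth, so how depth limits these values is unknown.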
